A study of Mus musculus with 4 samples.

Results

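Itm2a, Ablim1, Rgs16, Ipcef1 and Hmgb3 were followed as a group of 5 genes out of 55367 gene rows counted in RNA-seq libraries of tumor-infiltrating cells. The genes were picked by symbol because their counts had differed widely between the libraries labeled WT and those labeled KO, so the size of that difference is given here as a description and not as a test. The question of the series was how the nuclear protein SATB1 shapes tumor-infiltrating lymphocytes. The 4 libraries came from mouse tumors of the melanoma line B16-F10 after dissociation. The extraction protocol names a sort for CD45.2 and CD8, which mark blood-derived cells and cytotoxic T cells, whereas the cell type field of the labels gives CD45.2 alone. Each label, WT and KO, stood on 2 libraries. The series text names mice with floxed Satb1 alleles (Satb1 F/F) crossed to ThPOK-cre, which acts in the CD4 lineage, or to E8I-cre, which acts in the CD8 lineage. Which of the drivers stands behind the KO label, the age and sex of these animals, and whether the libraries of a group came from separate animals were not given by the labels. Spreads below therefore describe these libraries and may be technical.

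The members belong to different parts of a T cell's machinery. Itm2a is a membrane protein that thymocytes switch on during selection and T cells on activation. Rgs16 is a regulator of G-protein signaling that shortens the signals of chemokine and other G-protein-coupled receptors. Ipcef1 binds cytohesins, the exchange factors that load ARF GTPases. Ablim1 is a LIM-domain protein that binds actin filaments. Hmgb3 is a high mobility group protein that bends DNA and is known from blood progenitors. None of them is restricted to T cells across the body.

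Several facts of the libraries bear on every value below. Counts on genes ranged from 4017875 to 5382915 per library. The series text names Satb1 as the floxed gene. Satb1 counts were nonetheless higher under the label KO, with 7 and 5 in WT 1 and WT 2 against 131 and 55 in KO 1 and KO 2. The difference did not pass the threshold of the test described below (edgeR adjusted p = 0.115). Summed counts of the T cell genes Cd3e, Cd3d and Cd3g were also higher, at 3220 and 1950 against 116 and 180. The ratio of Satb1 to them was not taken, so whether Satb1 RNA per T cell differed was not tested. Each direction below is that of the libraries as labeled. Markers went against a sort for CD8. The 10 T cell identity genes summed to between 80.7 and 112 normalized CPM, read counts brought to a common library total by TMM (trimmed mean of M-values), in the libraries labeled WT and to between 1152 and 2066 in those labeled KO, whereas 13 macrophage or monocyte genes summed to 36245 and 42537 against 19801 and 27014. None of these 23 genes was at 0 in any library, and all 10 T cell genes were higher in both libraries labeled KO, 9 of them past the threshold of the test described below. Summed melanoma markers came to between 271 and 281 normalized CPM under the label WT and to between 1230 and 2031 under the label KO, and 16 cell cycle genes to between 413 and 865 against between 1459 and 1699. Fibroblast or endothelium markers came to 24.8 and 20.2 normalized CPM in WT 1 and WT 2, against 1154 in KO 1 and 186 in KO 2. Pdgfra was at 0 in both libraries labeled WT and Col1a1 in WT 2. The 8 dendritic cell genes summed to 127 and 180 against 476 and 400, with Xcr1 and Flt3 at 0 in WT 1 and Flt3 in KO 2. The 5 B cell genes reached at most 44.8 normalized CPM in any library, with Pax5 at 0 throughout, and the 5 NK cell genes at most 1.70. How far any of these shifts entered into the values of the members was not tested, apart from the ratios to CD3 transcripts given below. In such bulk samples fewer cells of a type and less RNA per cell cannot be told apart.

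All 5 members had more normalized CPM in both libraries labeled KO than in either library labeled WT. That pattern held for 25.3% of the 11837 genes that passed the filter on low counts, and all 5 members passed that filter. In the edgeR quasi-likelihood fit over those genes, 68 passed an adjusted p of 0.05, of which 65 were higher under the label KO (0.549% of the genes tested) and 3 lower (0.0253%), and the 5 members were among them, as their choice had fixed. The number of genes past the threshold came to 113 without WT 1, 228 without WT 2, 123 without KO 1 and 1249 without KO 2, so it depended on which libraries entered. Hmgb3 was not among these genes without WT 1, at a log2 fold change of 3.52, nor Ipcef1 without KO 1, at 8.42. Each of these fits leaves 1 library in a group and takes its spread from the other group. The members, picked on this contrast, get no test from them.

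Itm2a, the membrane protein, lies on chromosome X (ENSMUSG00000031239.5, GRCm38/mm10, 107397099 to 107403376, minus strand). WT 1 held 1 count of it and WT 2 held 0, whereas KO 1 held 180 and KO 2 held 84. It was thus all but missing from the libraries labeled WT, and KO 1 held more of it than KO 2. Normalized CPM averaged 0.150 ± 0.211 (SD, n = 2) under the label WT and 24.3 ± 13.8 (SD, n = 2) under the label KO. Scaled for effective library size, the ratio of the pooled counts was 177, with an exact Poisson 95% interval from 31.5 to 7017. Like all those below, this interval covers counting error only and leaves out variation between libraries. PCR copies of a molecule could not be told from separate molecules, so it may be too narrow even for counting error.

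Rgs16, which acts on G-protein signals at the membrane, was the most abundant member (chromosome 1, 153740349 to 153745468, plus strand, ENSMUSG00000026475.7). WT 1 and WT 2 held 15 and 24 counts of it, KO 1 and KO 2 held 434 and 611. Unlike the other members it was higher in KO 2 than in KO 1. Normalized CPM averaged 5.20 ± 1.01 (SD, n = 2) and 94.1 ± 16.9 (SD, n = 2) in the respective groups, and the fit gave a log2 fold change of 4.17 (SE 0.51). Rgs16 shares 236 exonic bases, or 10.1%, with Gm28513, an antisense gene on the other strand. Gm28513 was chosen after its values were seen, and its counts of 3 and 2 under the label WT and of 72 and 144 in KO 1 and KO 2 were, like those of Rgs16, higher under the label KO and highest in KO 2. Because the counting was not stated to use strand, reads of the pair cannot be assigned with certainty.

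Ipcef1, the partner of cytohesins, was the least abundant member (chromosome 10, 6885796 to 7052478, minus strand, ENSMUSG00000064065.15). Neither WT 1 nor WT 2 gave a single read on it (0 counts), whereas KO 1 gave 102 and KO 2 gave 56. Set against 3 counts in each library labeled WT, which is what a count of 0 allows, and scaled in the same way, it was at least 17.7-fold higher under the label KO. Its mean there was 14.5 ± 6.78 normalized CPM (SD, n = 2). Only 1.07% of its exonic bases are shared with another gene, Oprm1, on the other strand.

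Ablim1, the actin-binding LIM protein, spans chromosome 19 from 57032733 to 57314919 on the minus strand (ENSMUSG00000025085.16). WT 1 had 7 counts of it and WT 2 had 13, KO 1 had 346 and KO 2 had 322. The libraries labeled KO lay close together, at 65.5 and 55.9 normalized CPM, and the libraries labeled WT at 2.09 and 3.20. Means were 2.65 ± 0.785 (SD, n = 2) and 60.7 ± 6.78 (SD, n = 2), and the fitted log2 fold change was 4.49 (SE 0.55).

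Hmgb3, the DNA-bending protein, is the other X-linked member (71555918 to 71560676, plus strand, ENSMUSG00000015217.11). It received 8 and 10 counts under the label WT, and 189 in KO 1 and 137 in KO 2. The libraries labeled WT were nearly level, at 2.43 ± 0.0507 normalized CPM (SD, n = 2), and those labeled KO had 29.8 ± 8.48 (SD, n = 2). Its fitted log2 fold change of 3.60 (SE 0.61) was the smallest of the 5. A stretch of 603 bases of its longest transcript is 99.5% identical to Gm6104, which received 0 counts from either library labeled WT, 2 from KO 1 and 1 from KO 2. HTSeq by default leaves out reads with several alignments, and how many reads of Hmgb3 this removed was not tested.

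Per kilobase of exonic length, levels in the libraries labeled KO followed the order Rgs16, Itm2a, Hmgb3, Ablim1 and Ipcef1, at 40.2, 13.95, 13.3, 5.08 and 1.61 normalized CPM per kilobase. Itm2a and Hmgb3 did not differ beyond their spread, since KO 1 and KO 2 had 19.5 and 8.36 for Itm2a against 16.0 and 10.6 for Hmgb3. In the libraries labeled WT, Rgs16 and Hmgb3 led with 2.22 and 1.09, followed by Ablim1 with 0.222 and Itm2a with 0.0857, and Ipcef1 was at 0. Rgs16 in the libraries labeled KO exceeded 87.9% of the genes tested on this scale, and Ipcef1 19.5%. Exonic length counts every annotated exon, which lowers the values of genes with several transcripts, such as Ablim1 with 11949 exonic bases.

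**Figure D1:**
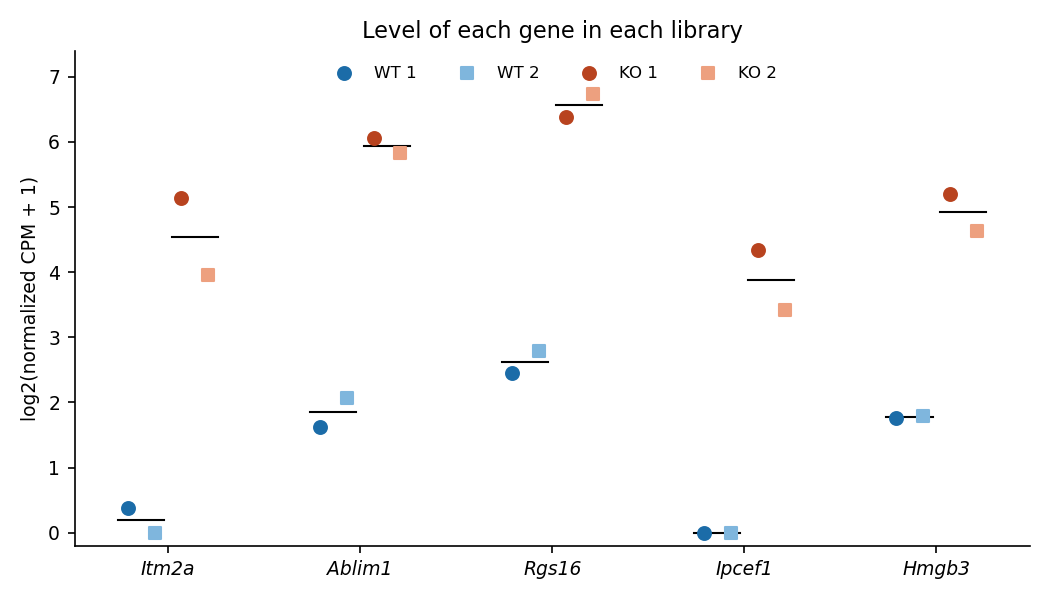
Level of the 5 genes in each library, as log2 of normalized CPM plus 1, with circles for replicate 1, squares for replicate 2, and black lines at the group means. Both libraries labeled KO lie above both labeled WT for every gene, and Rgs16 alone is higher in KO 2 than in KO 1, at 106 against 82.2 normalized CPM.

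RefSeq (GRCm38.p6) lists a single start for Itm2a, Rgs16 and Hmgb3, against 5 starts for Ablim1 and 3 for Ipcef1, for which gene-level counts do not tell which start was used. The 250 bases upstream of the start are shown for the members with a single start, because their promoter as annotated is unambiguous. They are chrX:107403361-107403610 (minus strand) for Itm2a, chr1:153740103-153740352 (plus strand) for Rgs16 and chrX:71555667-71555916 (plus strand) for Hmgb3, written 5′ to 3′ with each CG dinucleotide in capitals.
Itm2a: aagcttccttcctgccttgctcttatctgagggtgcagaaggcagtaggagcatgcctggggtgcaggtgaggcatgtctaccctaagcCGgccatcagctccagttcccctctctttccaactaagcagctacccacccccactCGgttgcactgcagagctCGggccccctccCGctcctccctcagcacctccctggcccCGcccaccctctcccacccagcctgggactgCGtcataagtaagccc
Rgs16: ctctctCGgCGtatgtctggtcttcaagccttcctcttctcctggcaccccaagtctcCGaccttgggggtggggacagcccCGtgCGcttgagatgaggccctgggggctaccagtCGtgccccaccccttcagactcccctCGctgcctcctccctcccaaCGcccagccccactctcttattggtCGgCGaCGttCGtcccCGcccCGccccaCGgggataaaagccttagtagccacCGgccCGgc
Hmgb3: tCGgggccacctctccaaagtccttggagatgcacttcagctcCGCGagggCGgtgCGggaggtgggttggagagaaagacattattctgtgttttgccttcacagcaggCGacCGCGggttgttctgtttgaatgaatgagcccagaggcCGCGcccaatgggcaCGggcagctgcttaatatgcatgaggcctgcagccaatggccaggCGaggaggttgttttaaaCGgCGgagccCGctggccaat
The windows of Rgs16 and Hmgb3 hold 17 and 15 CG dinucleotides and that of Itm2a holds 6, which is also the median of the 32851 windows in the table. The G and C content was 66.4% for Rgs16, 62.8% for Itm2a and 58.8% for Hmgb3, against a median of 52.4%. Itm2a, which was almost absent from the libraries labeled WT, and Rgs16, which was not, both lie above the median in G and C content. The windows not shown had 44.4%, 36.8% and 42.8% for Ipcef1, below the median, and from 41.2% to 63.2% for Ablim1.

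Short motifs of factors known in T cells were searched on both strands of all 11 windows of the members. The RUNX core TGTGGT was found in 1 member window, against 14.1% of all windows of this length. The TCF or LEF core CTTTGA was found in 0 member windows, against 13.8%. The AP-1 site TGANTCA was found in 1, against 6.75%, and the NFAT core GGAAAA in 3, against 20.4%. All 5 matches lay upstream of Ablim1 or Ipcef1. They stand for 4 sites, because overlapping windows of Ipcef1 share the same NFAT match, so that the NFAT core was found at 2 sites. No match overlapped one of a different motif. These letters were not present in the windows shown above. A match is not a measured binding site, and a window without one says nothing about the factor.

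Members were next set against the transcripts of the CD3 chains, the signaling part of the T cell receptor, to describe them relative to T cell RNA. Cd3e, Cd3d and Cd3g together had 116 and 180 counts in WT 1 and WT 2, and 3220 and 1950 in KO 1 and KO 2. On this scale the members' ratios of KO to WT differed in size. The intervals of Hmgb3, Rgs16 and Ablim1 overlapped, and differences between members were not tested. Hmgb3 had 6.90 and 5.56 counts per 100 CD3 counts in WT 1 and WT 2, and 5.87 and 7.03 in KO 1 and KO 2. The groups overlapped, and the ratio of KO to WT was 1.04 with an exact 95% interval from 0.646 to 1.77. Hmgb3 thus had 18 counts in the libraries labeled WT where the pooled ratio of the libraries labeled KO would give 18.7.

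Rgs16 gave 12.9 and 13.3 counts per 100 CD3 counts in WT 1 and WT 2, 13.5 in KO 1 and 31.3 in KO 2. On the summed CD3 counts KO 1 lay within the intervals of the libraries labeled WT, 7.01 to 22.2 and 8.32 to 20.5, and KO 2 stood above them, with an interval from 28.6 to 34.3. The position of KO 1 depended on the chain. Per 100 Cd3e counts Rgs16 had 57.7 and 58.5 in WT 1 and WT 2, 74.2 in KO 1 and 92.7 in KO 2, without overlap of the groups, whereas per 100 Cd3g counts KO 1, at 26.6, was below both libraries labeled WT, at 30.0 and 29.3. The pooled ratio was 1.53 (exact 95% interval 1.11 to 2.17), or 0.62 on the log2 scale, against 0.03 without KO 2 and 1.25 without KO 1. Ablim1 had 6.03 and 7.22 per 100 in WT 1 and WT 2, 10.7 in KO 1 and 16.5 in KO 2, without overlap. Its pooled ratio was 1.91 (exact 95% interval 1.23 to 3.15), although the intervals of WT 1, from 2.37 to 12.8, and of WT 2, from 3.77 to 12.7, both reached past the value of KO 1.

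For Itm2a and Ipcef1, with 1 count between them in the libraries labeled WT, the values on this scale rested on very few counts. Itm2a had 0.862 and 0 counts per 100 CD3 counts in WT 1 and WT 2, and 5.59 and 4.31 in KO 1 and KO 2. The interval of WT 1, from 0.0216 to 4.90, reached past the value of KO 2. At the pooled ratio of the libraries labeled KO, the libraries labeled WT would hold 15.1 counts of Itm2a, and they held 1. The ratio of 15.1 had an exact 95% interval from 2.69 to 599, and its log2 value of 3.92 came to 2.57 without WT 2 and to at least 1.62 without WT 1. Ipcef1 had 0 in both libraries labeled WT, where a count of 0 allows up to 2.59 and 1.67 per 100, and 3.17 and 2.87 in KO 1 and KO 2. Its libraries labeled WT would hold 9.05 counts at the pooled ratio of the libraries labeled KO. With 3 counts allowed in each, Ipcef1 was at least 1.51-fold higher per CD3 count, so little depth was left to compare it. The exact 95% interval of its pooled ratio, with the counts of 0 taken as they are, began at 2.42. With 2 libraries a group no exact permutation test can reach 0.05, and no test was made on these ratios.

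**Figure D2:**
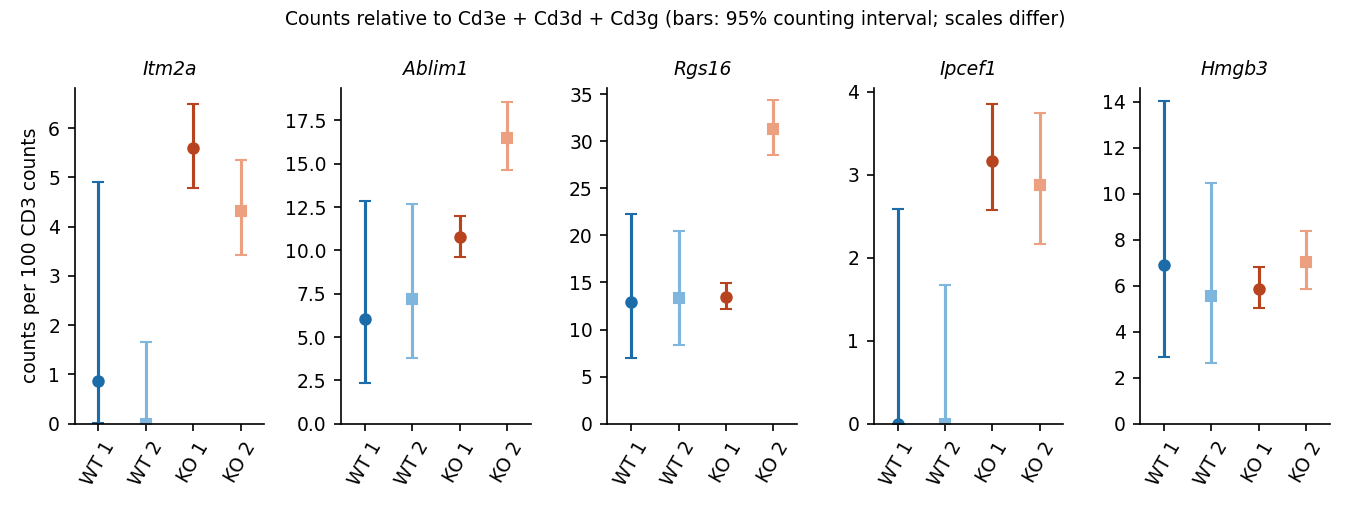
Counts of each gene per 100 counts of Cd3e, Cd3d and Cd3g in each library, on a separate linear scale for each gene, with exact 95% counting intervals, or 3 counts as the upper end where the count was 0. Hmgb3 lies between 5.56 and 7.03 in the 4 libraries, Rgs16 is highest in KO 2 at 31.3, and Itm2a and Ipcef1 are at or near 0 in the libraries labeled WT.

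The choice of denominator mattered for the smaller ratios. Per count of Cd8a and Cd8b1, the CD8 chains, the log2 ratio of KO to WT was -0.33 for Hmgb3 and 0.55 for Ablim1, against 0.05 and 0.94 per CD3 count. For Rgs16 it was 0.23, and 0.14 per count on the T cell identity list. On both of these scales KO 1 had less Rgs16 than either library labeled WT, at 27.7 per 100 CD8 counts against 31.9 and 33.8, and at 3.98 per 100 counts on the T cell list against 5.56 and 5.30, so the groups overlapped. Per count of Ptprc, the gene of the pan-leukocyte protein CD45, the log2 ratios of all 5 members lay between 2.22 and 6.09. Ptprc itself was uneven within the label WT, with 135 counts in WT 1 and 694 in WT 2, and had 2151 in KO 1 and 1067 in KO 2.

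The libraries labeled KO differed from each other, and so did the CD3 chains. Scaled for depth, CD3 counts were 1.80 times as high in KO 1 as in KO 2 (exact 95% interval 1.70 to 1.91), and the T cell identity list 1.79 times. Among the chains, Cd3g was 2.75 times as high (2.51 to 3.01), Cd3d 1.70 times (1.54 to 1.88) and Cd3e 0.968 times (0.864 to 1.08). Itm2a was 2.34 times as high (1.79 to 3.06), Ipcef1 1.99 times (1.42 to 2.80) and Hmgb3 1.504 times (1.20 to 1.89). The intervals of these 3 members overlapped that of summed CD3 and lay above that of Cd3e. Ablim1 was 1.17 times as high (1.004 to 1.37) and Rgs16 0.774 times (0.683 to 0.877), both with intervals below that of summed CD3 but overlapping that of Cd3e. Melanoma markers were 1.65 times as high in KO 1, cell cycle genes 1.16 times, macrophage or monocyte genes 0.733 times, and fibroblast or endothelium genes 6.20 times (5.80 to 6.62). Dendritic cell genes were 1.19 times as high, and B cell genes, with 21 and 80 counts, 0.286 times (0.168 to 0.467). The cell cycle and dendritic cell ratios lay within the interval of Ablim1, the macrophage or monocyte ratio within that of Rgs16, and the melanoma ratio within those of Ipcef1 and Hmgb3, whereas the fibroblast or endothelium ratio lay above the intervals of all 5 members and the B cell ratio below them. Each ratio compares 1 library with another and has no replicate check.

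**Figure D3:**
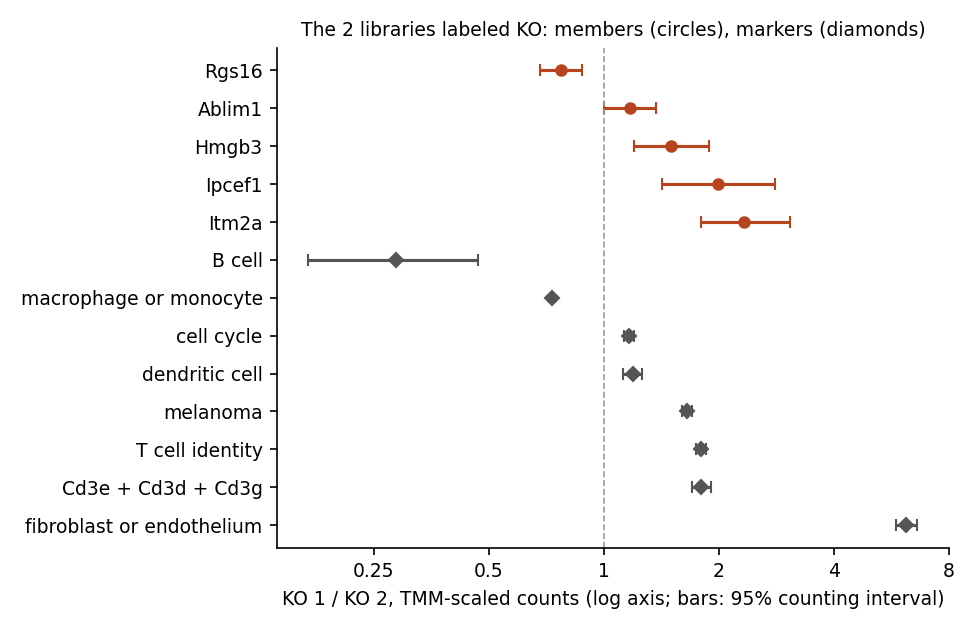
Ratio of KO 1 to KO 2 in TMM-scaled counts on a log axis, with exact 95% counting intervals, for the 5 genes (circles) and for summed marker lists and CD3 counts (diamonds). Itm2a, Ipcef1 and Hmgb3 lie near the summed CD3 ratio of 1.80, Ablim1 and Rgs16 lie below it, and the NK cell list, with 9 and 2 counts, is left out.

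Genes with the most similar course over the 4 libraries were found by the root mean square distance between centered log2(normalized CPM + 1) profiles, among 10611 genes. For Hmgb3 these were Lat, an adaptor of the T cell receptor, Tyrp1, a pigment enzyme of melanocytes, and Ect2, a regulator of cytokinesis, at distances of 0.07, 0.08 and 0.09. The closest genes to Hmgb3 thus included a T cell gene, a melanoma gene and a cell division gene. From WT 1 through KO 2, in the order of the labels, Lat had 14, 16, 279 and 225 counts and Tyrp1 had 107, 151, 1940 and 1575. For Ablim1 the nearest were Camk4, Gimap4 and Cd8a at 0.13, 0.13 and 0.18, which encode a calcium-dependent kinase, a lymphocyte GTPase and a CD8 chain. For Rgs16 they were Il2rb, an interleukin receptor chain, Phgdh, an enzyme of serine synthesis, and Nefh, a neurofilament gene, at 0.17, 0.18 and 0.18. Phgdh, with 464 counts in KO 1 and 910 in KO 2, shared the lean of Rgs16 toward KO 2. For Ipcef1 they were Dusp14, a phosphatase gene, Myb, a transcription factor gene of progenitors and T cells, and Gimap4, at 0.18, 0.19 and 0.19. For Itm2a they were Ddx3y, Tcf7, a transcription factor gene of T cells, and Nrgn, at 0.17, 0.25 and 0.26.

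Ddx3y is Y-linked and had 0 counts under the label WT, 188 in KO 1 and 81 in KO 2, almost those of Itm2a. The Y-linked genes Eif2s3y, Kdm5d and Uty were likewise at 0 in both libraries labeled WT, and Xist, the transcript of the inactive X chromosome, had 435 and 216 counts there against 0 and 3. For the X-linked members Itm2a and Hmgb3, as for the others, sex and group cannot be told apart. Among the members, the nearest pair was Ablim1 and Rgs16 at 0.23 and the farthest Itm2a and Hmgb3 at 0.66.

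The relatives of the members were compared to see whether whole families moved. Of 47 genes related to the members by family or pathway, 26 were tested and 0 passed the threshold in edgeR, against 0.574% of all genes tested in either direction. At an unadjusted p under 0.05 the count was 3 of 26, namely Cytip, Hmgb1 and Hmgb2, against 13.7% of all genes tested. In DESeq2 it was 1 of 26, Hmgb2, against 3.51%. These genes were named after their values were seen. Of the 26 genes 13 were higher and 13 lower, with a median log2 fold change of -0.06 against 0.05 over all genes. Of all genes tested 52.6% were higher. In the high mobility group list 5 of 6 tested genes were higher (median log2 value 1.20), and in the RGS list 5 of 8 (0.27). In the ITM2 list 0 of 2 were higher (median -0.73), in the cytohesin and Arf6 list 2 of 7 (-0.23), and in the list of Ablim1 1 of 3 (-0.17). The groups did not overlap for 12 of them, with KO above WT for 8 (25.3% of all genes tested) and WT above KO for 4 (22.6%).

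Itm2b and Itm2c, the other ITM2 genes, had log2 fold changes of -0.76 and -0.69 (edgeR adjusted p = 0.558 and 0.504), opposite in sign to Itm2a. Itm2b was the most abundant of them, with 1034 and 1008 normalized CPM per kilobase in WT 1 and WT 2 and 437 and 769 in KO 1 and KO 2. Itm2a made up at most 3.76% of the summed family level per kilobase, in KO 1. Among 19 other RGS genes 8 were tested, with log2 fold changes from -0.79 for Rgs10 to 0.75 for Rgs12. Rgs2, the most abundant of them on average over the 4 libraries but behind Rgs10 in WT 1 and behind Rgs10 and Rgs19 in WT 2, had 43.4, 39.2, 89.7 and 36.9 normalized CPM per kilobase in WT 1, WT 2, KO 1 and KO 2, so that its groups overlapped. Rgs16 ranked 6th and 7th of the family in WT 1 and WT 2, 3rd in KO 1 and 1st in KO 2, where it made up 24.4% of the family's summed level. Its share was 1.15% and 1.39% in WT 1 and WT 2, and 15.1% in KO 1.

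No cytohesin gene, the partners of Ipcef1, passed the threshold. Cyth1, Cyth2, Cyth3 and Cyth4 had log2 fold changes between -0.38 and 0.05, and their groups overlapped. Arf6, the most abundant gene of that list, had -0.89 (SE 0.47, edgeR adjusted p = 0.441). Cytip, which binds cytohesins in lymphocytes, had 144 and 272 counts in WT 1 and WT 2 against 1182 and 645 in KO 1 and KO 2, or 1.61 on the log2 scale (SE 0.50, edgeR adjusted p = 0.221). In the list of Ablim1, the most abundant gene, Lasp1, had a log2 fold change of -0.60 (edgeR adjusted p = 0.670).

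No gene of the high mobility group list other than Hmgb3 passed the threshold. Hmgb2, a chromatin protein of dividing cells, had 235 and 548 counts in WT 1 and WT 2 against 4294 and 1313 in KO 1 and KO 2, or 2.34 on the log2 scale (SE 0.67, edgeR adjusted p = 0.180). For Hmgb1 the log2 fold change was 1.35 (SE 0.57, edgeR adjusted p = 0.345). Hmga1, the most abundant on average over the 4 libraries, had -1.06 (edgeR adjusted p = 0.445), with groups that overlapped. Hmgb3 stayed a small part of the list, at most 3.45% of its summed level per kilobase. Without KO 2, 7 of the 27 related genes tested in that fit passed the threshold, namely Lasp1, Cytip, Hmgb1, Hmgb2, Hmga1, Hmgn1 and Hmgn5, against 9.72% of its 12852 genes. That fit has KO 1 alone under the label KO, so its spread comes from WT 1 and WT 2 and KO 1 is assumed to vary like them.

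**Figure D4:**
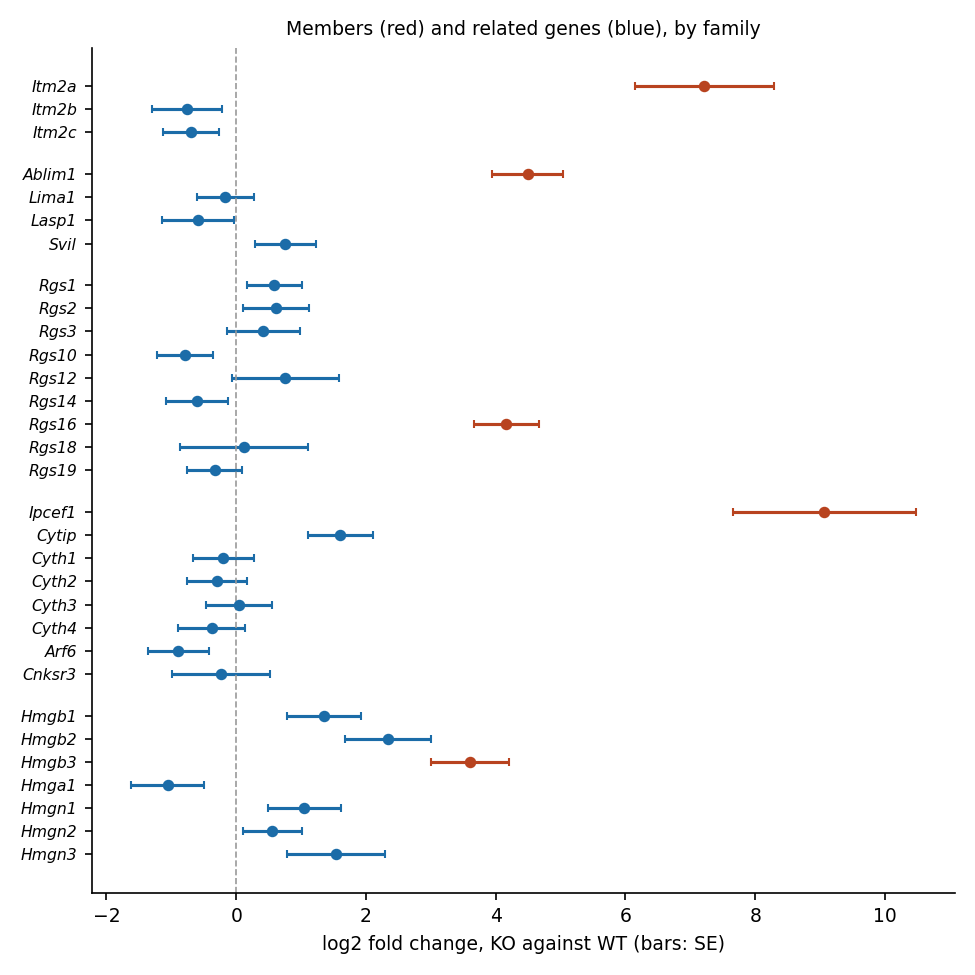
Log2 fold change of KO against WT with its SE for the 5 genes (red) and the 26 tested relatives (blue), grouped by family. The relatives lie between -1.06 and 2.34, and the members, picked for this difference, between 3.60 and 9.07, where the values of Itm2a and Ipcef1 depend on the prior count because their libraries labeled WT held 1 and 0 counts.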

How the data were processed

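Sorted tumor-infiltrating cells were profiled in 4 polyadenylated RNA libraries, grouped as WT or KO by title. The authors deposited raw counts of reads, 1 table per library. Per the labels and the study's methods, reads were aligned to mm10 with HISAT2 2.1.0 and counted with HTSeq 0.11.0. The annotation, the strand setting and any trimming were not given in the sources used here. Rows that name no gene, between 71.2% and 79.5% of reads, entered neither library sizes nor tests. Symbols were matched to GENCODE M21 (GRCm38) for 96.4% of rows.

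The test was run with edgeR 4.0.16 under R 4.3.3 (filterByExpr, TMM factors over full library totals, quasi-likelihood F test, group as the only term, prior count 0.125). Two-sided P-values received a Benjamini-Hochberg adjustment over the 11837 genes tested. An SE is the log2 fold change divided by the square root of F. A count of 3 came to between 0.521 and 0.897 normalized CPM per library. Ratios carry exact conditional (binomial) 95% intervals. The fit was tested on simulated data. The same-numbered libraries' deviations correlated at -0.19 over 11837 genes. Alternatives were other factors, no filter, DESeq2 1.42.0, a replicate block, another prior count, other denominators and each library left out. A crossed block and the ratios without single libraries or per single CD3 chain were added after seeing the data.

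The members, lists and tests were chosen with earlier results of these data known. Genes were named by this rule: the members, relatives past the threshold or most abundant per length in each list, the 3 nearest profiles per member (at least 5 normalized CPM in the higher group), Satb1, the CD3 genes and sex-linked genes. Other genes (further relatives, overlapping or near-identical genes, markers at 0 and Ptprc) were named after their values were seen.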

Additional observations from a re-analysis of the deposited data

How the results depend on the processing

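With only 2 libraries a group, few counts in the libraries labeled WT and no batch in the labels, the values of Itm2a and Ipcef1 are limited by depth. Without a filter 583 genes passed the threshold (505 higher and 78 lower), in DESeq2 416 (350 and 66), and with the replicate block 215 (201 and 14). Replicate numbers came from the titles only, and the same-numbered libraries correlated negatively, so no pairing is assumed. A crossed replicate block gave 647 genes (535 and 112). Leaving out single libraries gave 113 to 1249 genes, 99 to 725 higher and 7 to 524 lower. Of the relatives, 1 passed without a filter and 1 in DESeq2, Hmgb2 in both, 2 with the crossed block, 0 with the replicate block and 0 to 7 without single libraries.

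With a prior count of 2 that of Itm2a was 5.43 and that of Ipcef1 5.11, and DESeq2 gave 8.17 for Ipcef1. Without single libraries Itm2a ranged from 6.16 to 9.90, Ablim1 from 4.17 to 4.79, Rgs16 from 3.93 to 4.34, Ipcef1 from 8.42 to 9.33 and Hmgb3 from 3.27 to 3.83, with fitted values of Itm2a and Ipcef1 that depend on the prior count. With the replicate block the values were 7.23, 4.51, 4.17, 9.01 and 3.57 in the same order.

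Log2 ratios per Ptprc count were 6.09 for Itm2a, 3.11 for Ablim1, 2.79 for Rgs16, 2.76 for Ipcef1 and 2.22 for Hmgb3. Per Cd8a and Cd8b1 count, Itm2a had 3.53, Ablim1 0.55, Rgs16 0.23, Ipcef1 0.21 and Hmgb3 -0.33, and per count on the T cell identity list 3.44, 0.46, 0.14, 0.12 and -0.42. Per CD3 count without single libraries, Itm2a ranged from 1.62 to 4.05, Ablim1 from 0.67 to 1.29, Rgs16 from 0.033 to 1.25, Ipcef1 from 0.24 to 0.87 and Hmgb3 from -0.13 without WT 2 and -0.05 without KO 2 to 0.21. Per Cd3e count alone Hmgb3 had -0.036, and per single chain the other members lay between 0.50 and 3.96. Values of Ipcef1 are lower bounds, as are those of Itm2a without WT 1, and the cause of these shifts was not tested. Plain CPM left the members' ratios of KO 1 to KO 2 within their counting intervals, and took those of CD3 counts and of T cell identity genes to 1.98, dendritic cell genes to 1.31, melanoma markers to 1.82, cell cycle genes to 1.28, macrophage or monocyte genes to 0.808 and fibroblast or endothelium genes to 6.83, outside theirs.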
